A study of Mus musculus with 10 samples.

Results

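The collagen genes and the genes of other structural proteins of the extracellular matrix were examined in mouse Lewis lung carcinoma (LLC) cells. LLC is a tumour line from the lung of a C57BL/6 mouse. The 34 genes were taken by name, and each was read by the brightest of its probe sets that carry a single gene symbol. Of the 34 genes, 32 had such a probe set among the 18193 genes of the array, and 27 were bright enough to be tested among 12160 genes. Fbn1 and Loxl2 are not analysed here. The 5 dim genes that were not tested were Col1a1 (signal 1.1 to 8.1 over the arrays), Lox (1 to 11), Loxl1 (0.9 to 14.2), Postn (0.6 to 10.4) and Lama4 (0.4 to 4.4).

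The study asked which genes the proton-sensing receptor TDAG8 (gene symbol Gpr65) regulates. One LLC line stably carried TDAG8 (the TDAG8 line) and the other the control vector (the control line); whether either line was 1 clone, and which promoter drove the receptor, is not given in the sources used here. Both lines went without serum for 12 h in medium at pH 7.4 with BSA, and were then kept in that medium at pH 6.4 or pH 7.4 for 4 h or 12 h, or taken before treatment. Each line and condition had 1 Affymetrix Mouse430 2.0 array, 10 arrays in all, and each array held RNA pooled from 4 cultures.

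The deposited signals were scaled by the authors to the same 2% trimmed mean of 100 on every array, and array medians lay between 11.7 and 13.8. The Gpr65 probe set read 0.3 to 5.3 on all arrays, at the level of undetected genes in both lines, so it gives no check of the line labels. Of the markers of cell identity, the mesenchymal genes Vim (6139.9 to 9227) and S100a4 (4756.9 to 6816) and the keratin gene Krt8 (1242 to 2647.9) were bright. Other mesenchymal markers were mixed. Pdgfra (264.7 to 1617.4) and Pdgfrb (95.3 to 654.2) were well above background, while Cdh2 (0.2 to 4.2), Fap (0.7 to 5.3) and Thy1 (1 to 10) were dim. The epithelial markers Epcam and Krt18 read 22.1 to 45.1 and 21.6 to 194.4. The epithelial cadherin gene Cdh1 (0.2 to 5.3) and the lung epithelial genes Nkx2-1 (0.5 to 9.2) and Sftpc (0.5 to 10.4) were dim, so the labelled lung origin was not seen in these markers. The summed signal of 7 leukocyte markers was 64.3 to 78.4 in the TDAG8 line and 49.1 to 77.2 in the control line, and that of 6 endothelial markers was 25.7 to 37.6 and 17.2 to 29.7. Ptprc (1.2 to 6.3), which marks leukocytes, and Pecam1 (0.8 to 6.6), which marks endothelium, were near background on every array.

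Collagens are helical proteins built of several chains. The fibrillar collagens (types I, III and V) form the cables of connective tissue, type IV forms the sheet of basement membranes together with laminins, nidogen and perlecan, and type VI forms beaded microfilaments around cells. Proteoglycans such as decorin and lumican bind collagen fibrils, versican swells the provisional matrix, and fibronectin links the matrix to integrins. Mesenchymal cells are the usual makers of this matrix, and tumour cells of mesenchymal character make part of it themselves.

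After 12 h, 12 of the 27 genes were lower at pH 6.4 than at pH 7.4 and 1 was higher (limma, Benjamini-Hochberg adjusted p under 0.05 over all genes tested). That is 44.4% of the 27 genes called lower, and in the same comparison 17.6% of all genes tested were called lower, 17% higher and 34.6% in either direction. The median log2 difference was -0.28 over the 27 genes and 0.02 over all genes tested. The genes, and the further lists read below, were chosen with earlier results of these data known. Their shares beside those of all genes tested are thus no independent test, here or below. The 12 genes were Sned1, Vcan, Lum, Dcn, Fn1, Nid1, Thbs2, Col6a1, Col18a1, Col5a2, Col6a2 and Serpinh1, and the 1 higher gene was the dim Tnc. The 2 lines stood in for replicates in this fit, so a p-value measures only the spread between these arrays, and pooling had removed the spread between cultures. Differences are of log2(signal + 2.36) after quantile normalisation and understate the change of dim genes, while signals on each array are printed as deposited, so a small fitted difference can have another sign than the printed signals. In bulk RNA, fewer cells that make a transcript and less of it per cell cannot be told apart. Without the TDAG8 pair or the control pair of arrays at 12 h, 1 array was left at each pH. Fewer of the 27 genes, and fewer of all genes tested, then passed. With each array centred on its median, rather than quantile normalised, 8 of the 27 passed. Sned1, Vcan, Lum, Dcn and Fn1 were among the genes that passed each time. That centring also lowered the share of lower genes among all genes called to 39.6%, against 51% as fitted.

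**Figure D1:**
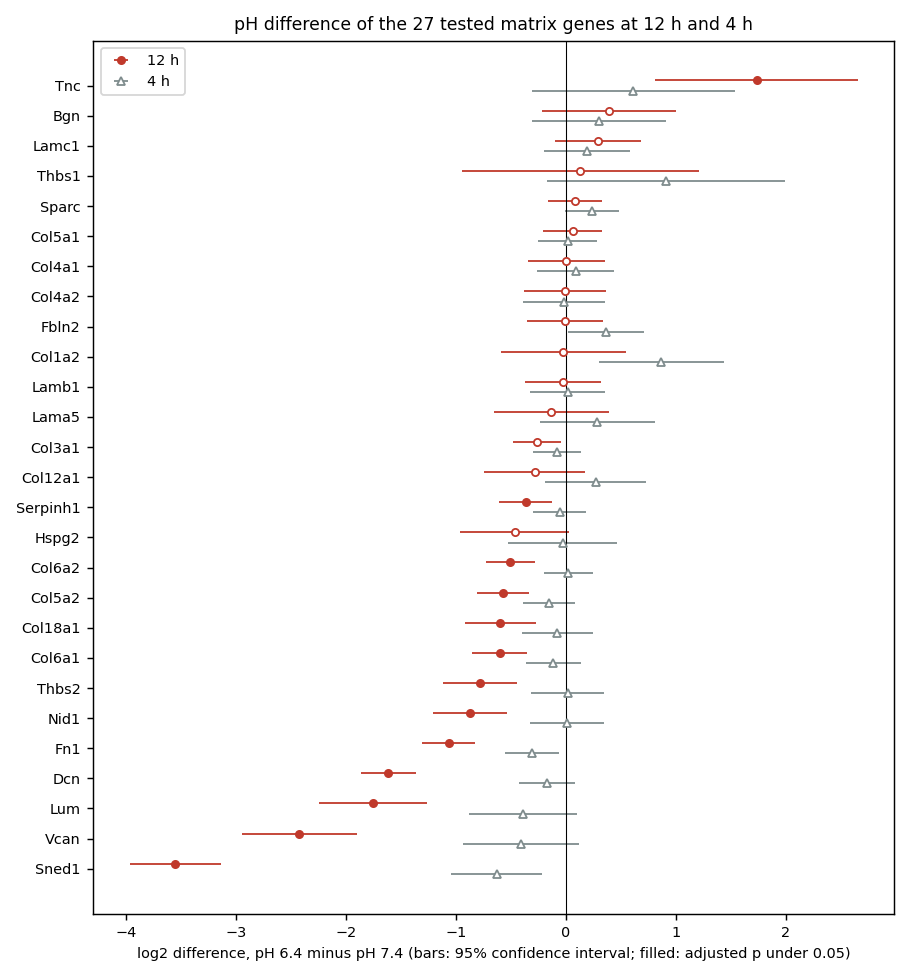
The log2 difference between pH 6.4 and pH 7.4 (x axis) is drawn for each of the 27 tested genes, after 12 h (circles) and after 4 h (triangles), with 95% confidence intervals; filled symbols passed the adjusted p threshold of 0.05. At 12 h the 12 filled circles left of 0 run from Serpinh1 (-0.36) to Sned1 (-3.55), Tnc is the 1 filled circle right of 0 (1.73), and no triangle is filled.

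Sned1, a secreted matrix protein with nidogen, EGF-like and fibronectin type III domains, had the widest difference of the set. Sned1 read 285.3 before treatment, 167.4 at pH 6.4 against 283.6 at pH 7.4 after 4 h, and 37.8 at pH 6.4 against 382.5 at pH 7.4 after 12 h in the TDAG8 line. Control-line Sned1 read 287 before treatment, 175.1 at pH 6.4 against 288.3 at pH 7.4 after 4 h, and 25.9 at pH 6.4 against 455.8 at pH 7.4 after 12 h. Both lines were thus lowest in acid at 12 h and highest at pH 7.4 at 12 h, and the lines barely differed before treatment. The fitted difference at 12 h was -3.55 on the log2 scale (SE 0.17, 11.7-fold lower, limma adjusted p = 0.000594). The matched difference was -3.20 in TDAG8 cells and -3.90 in control cells.

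Of the 4 proteoglycan genes, 3 were lower in acid at 12 h. Vcan encodes versican, the large hyaluronan-binding proteoglycan. Vcan read 829.6 before treatment, 819.7 at pH 6.4 against 993 at pH 7.4 after 4 h, and 423.7 at pH 6.4 against 1572.3 at pH 7.4 after 12 h in the TDAG8 line. Control-line Vcan read 774.2 before treatment, 708.7 at pH 6.4 against 938.4 at pH 7.4 after 4 h, and 230.4 at pH 6.4 against 1650.4 at pH 7.4 after 12 h. The pH 6.4 array at 12 h was the lowest of its line and the pH 7.4 array at 12 h the highest, and the 12 h difference was -2.42 (SE 0.22, 5.36-fold lower, limma adjusted p = 0.00114). Lum encodes lumican, a small leucine-rich proteoglycan of collagen fibrils. Lum read 2490.6 before treatment, 2899.2 at pH 6.4 against 3093.2 at pH 7.4 after 4 h, and 1619.8 at pH 6.4 against 3963.8 at pH 7.4 after 12 h in the TDAG8 line. Control-line Lum read 1668.1 before treatment, 1618.9 at pH 6.4 against 2027 at pH 7.4 after 4 h, and 708.4 at pH 6.4 against 3159.2 at pH 7.4 after 12 h. Lum was lowest in acid at 12 h in both lines and differed by -1.75 (SE 0.20, 3.37-fold lower, limma adjusted p = 0.00211). The matched differences of Lum at 12 h were -1.32 in TDAG8 cells and -2.18 in control cells. Dcn encodes decorin and lies next to Lum in the genome. Dcn read 474 before treatment, 617.6 at pH 6.4 against 701.2 at pH 7.4 after 4 h, and 425.7 at pH 6.4 against 1309 at pH 7.4 after 12 h in the TDAG8 line. Control-line Dcn read 370.2 before treatment, 424 at pH 6.4 against 472.3 at pH 7.4 after 4 h, and 330 at pH 6.4 against 923.3 at pH 7.4 after 12 h. Decorin differed by -1.615 (SE 0.10, 3.06-fold lower, limma adjusted p = 0.000764), and in both lines the arrays in acid at 12 h were only slightly below those before treatment. The fourth gene, Bgn (biglycan), was dim, at 7.1 to 16.8 over the arrays, with a difference of 0.39 (SE 0.25, limma adjusted p = 0.28).

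**Figure D2:**
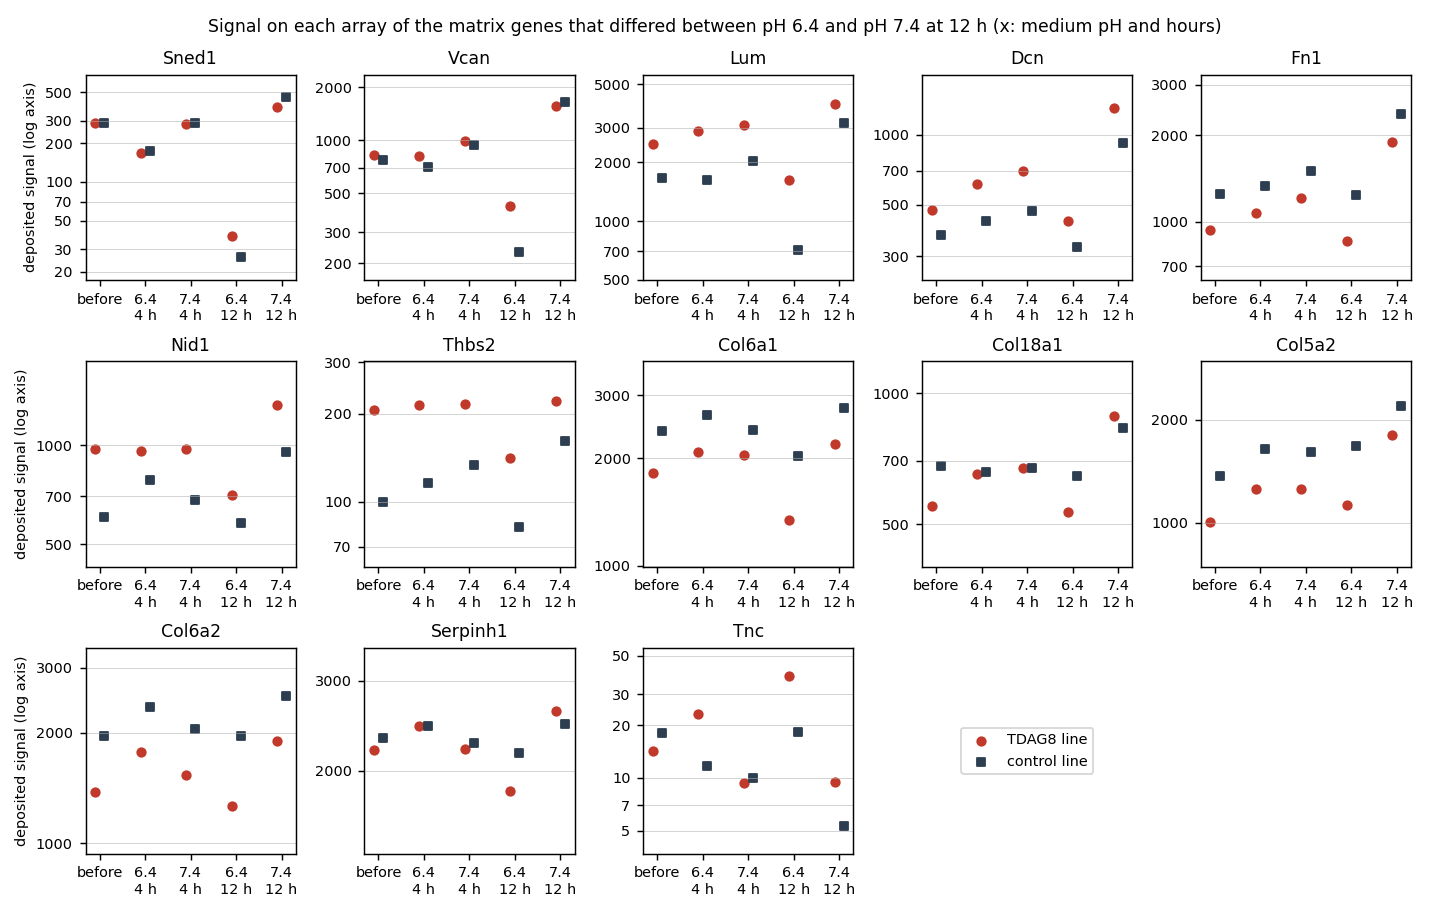
Deposited signal on each of the 10 arrays (log y axis, its own range in each panel) of the 13 genes that passed at 12 h, by medium pH and hours (x axis), for the TDAG8 line (circles) and the control line (squares); each point is 1 array. Sned1 falls to 37.8 and 25.9 in acid at 12 h, and Dcn and Fn1 stand highest at pH 7.4 at 12 h.

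Fn1 encodes fibronectin, and was highest at pH 7.4 at 12 h in both lines. Fn1 read 935.4 before treatment, 1070.5 at pH 6.4 against 1212.4 at pH 7.4 after 4 h, and 857.8 at pH 6.4 against 1889.1 at pH 7.4 after 12 h in the TDAG8 line. Control-line Fn1 read 1243.7 before treatment, 1329.4 at pH 6.4 against 1501.7 at pH 7.4 after 4 h, and 1239.8 at pH 6.4 against 2375.6 at pH 7.4 after 12 h. Fn1 differed by -1.07 at 12 h (SE 0.10, 2.09-fold lower, limma adjusted p = 0.00127), by -1.18 in the TDAG8 line and by -0.96 in the control line. Fbln2 (fibulin-2, an elastic fibre protein) read 37.7 to 64.7 and differed by -0.01 (SE 0.14).

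Among the collagens, Col6a1, Col6a2, Col5a2 and Col18a1 were lower in acid at 12 h, and the type IV chains gave differences near 0. Col6a1 and Col6a2 encode chains of the same type VI collagen and neighbour each other on chromosome 10. Col6a1 read 1816.1 before treatment, 2074.1 at pH 6.4 against 2039.8 at pH 7.4 after 4 h, and 1337.8 at pH 6.4 against 2191.8 at pH 7.4 after 12 h in the TDAG8 line. Control-line Col6a1 read 2376 before treatment, 2632 at pH 6.4 against 2396.1 at pH 7.4 after 4 h, and 2029.2 at pH 6.4 against 2764.3 at pH 7.4 after 12 h. Col6a1 was lowest in acid at 12 h in both lines. Col6a2 read 1375.3 before treatment, 1772.9 at pH 6.4 against 1530.3 at pH 7.4 after 4 h, and 1261.5 at pH 6.4 against 1904 at pH 7.4 after 12 h in the TDAG8 line. Control-line Col6a2 read 1954.8 before treatment, 2350.1 at pH 6.4 against 2040.8 at pH 7.4 after 4 h, and 1964.2 at pH 6.4 against 2521.5 at pH 7.4 after 12 h. Col6a2 was lowest in acid at 12 h in the TDAG8 line, while control-line Col6a2 in acid at 12 h was close to its level before treatment. The 12 h differences were -0.60 for Col6a1 (SE 0.10, limma adjusted p = 0.00712) and -0.51 for Col6a2 (SE 0.09, limma adjusted p = 0.0084).

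Col5a2, a chain of type V collagen that nucleates fibrils, neighbours the type III collagen gene Col3a1 on chromosome 1. Col5a2 read 1004.1 before treatment, 1249.6 at pH 6.4 against 1257.6 at pH 7.4 after 4 h, and 1123.9 at pH 6.4 against 1805.1 at pH 7.4 after 12 h in the TDAG8 line. Control-line Col5a2 read 1366.9 before treatment, 1641.8 at pH 6.4 against 1605.1 at pH 7.4 after 4 h, and 1678.5 at pH 6.4 against 2187.8 at pH 7.4 after 12 h. Col5a2 was highest at pH 7.4 at 12 h in both lines and differed by -0.57 (SE 0.10, limma adjusted p = 0.00713). Col3a1 read 4432.7 before treatment, 5652.8 at pH 6.4 against 5478.7 at pH 7.4 after 4 h, and 4702.4 at pH 6.4 against 5937.9 at pH 7.4 after 12 h in the TDAG8 line. Control-line Col3a1 read 6573 before treatment, 5962.1 at pH 6.4 against 5646.9 at pH 7.4 after 4 h, and 6656.5 at pH 6.4 against 6730.4 at pH 7.4 after 12 h. Col3a1 signals at pH 6.4 and at pH 7.4 overlapped, and the difference of -0.26 (SE 0.09, limma adjusted p = 0.0649) did not pass. Col5a1, another type V chain, read 849.8 to 1256.3 and differed by 0.06 (SE 0.11). The type I pair was dim. Col1a1 read 1.5 before treatment, 5.1 at pH 6.4 against 1.4 at pH 7.4 after 4 h, and 1.5 at pH 6.4 against 4 at pH 7.4 after 12 h in the TDAG8 line. Control-line Col1a1 read 7.3 before treatment, 1.1 at pH 6.4 against 2.1 at pH 7.4 after 4 h, and 8.1 at pH 6.4 against 3 at pH 7.4 after 12 h. No order is read from Col1a1, which was under the filter. Col1a2 read 16.5 before treatment, 20 at pH 6.4 against 12.4 at pH 7.4 after 4 h, and 9.5 at pH 6.4 against 11.1 at pH 7.4 after 12 h in the TDAG8 line. Control-line Col1a2 read 14.1 before treatment, 19 at pH 6.4 against 6.7 at pH 7.4 after 4 h, and 13.7 at pH 6.4 against 15.3 at pH 7.4 after 12 h. Col1a2 differed by -0.025 at 12 h (SE 0.23), and Col12a1, a fibril-associated collagen at 17.8 to 44, by -0.28 (SE 0.19, limma adjusted p = 0.294).

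The type IV chains Col4a1 and Col4a2 are transcribed in opposite directions from one shared start region. Col4a1 read 2179.4 before treatment, 2336.6 at pH 6.4 against 2095 at pH 7.4 after 4 h, and 1857.1 at pH 6.4 against 2067.5 at pH 7.4 after 12 h in the TDAG8 line. Control-line Col4a1 read 1967 before treatment, 2746.2 at pH 6.4 against 2098.6 at pH 7.4 after 4 h, and 2369.9 at pH 6.4 against 2068 at pH 7.4 after 12 h. The Col4a1 signals at pH 6.4 and at pH 7.4 overlapped. Col4a2 read 934.3 before treatment, 1056.1 at pH 6.4 against 1011.5 at pH 7.4 after 4 h, and 877.7 at pH 6.4 against 1068.2 at pH 7.4 after 12 h in the TDAG8 line. Control-line Col4a2 read 1045.6 before treatment, 1068.6 at pH 6.4 against 981.3 at pH 7.4 after 4 h, and 1171.8 at pH 6.4 against 924.8 at pH 7.4 after 12 h. Those of Col4a2 overlapped as well, and the 12 h differences were 0.005 for Col4a1 (SE 0.14) and -0.005 for Col4a2 (SE 0.15), with 95% intervals of -0.34 to 0.355 and -0.38 to 0.37. Col18a1 encodes the basement membrane collagen that yields endostatin. Col18a1 read 551.6 before treatment, 652.2 at pH 6.4 against 674.1 at pH 7.4 after 4 h, and 533.2 at pH 6.4 against 886.9 at pH 7.4 after 12 h in the TDAG8 line. Control-line Col18a1 read 679.4 before treatment, 660.3 at pH 6.4 against 673.4 at pH 7.4 after 4 h, and 647.2 at pH 6.4 against 829.9 at pH 7.4 after 12 h. Col18a1 was highest at pH 7.4 at 12 h in both lines and differed by -0.60 (SE 0.13, 1.51-fold lower, limma adjusted p = 0.0176).

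Of the laminin, nidogen and perlecan genes, 1 of 5 tested passed at 12 h, against 34.6% of all genes tested in either direction. Nid1 encodes nidogen-1, which ties laminin to type IV collagen. Nid1 read 972.2 before treatment, 957.8 at pH 6.4 against 974 at pH 7.4 after 4 h, and 703.4 at pH 6.4 against 1327.9 at pH 7.4 after 12 h in the TDAG8 line. Control-line Nid1 read 602.8 before treatment, 784.2 at pH 6.4 against 680 at pH 7.4 after 4 h, and 577.9 at pH 6.4 against 955.6 at pH 7.4 after 12 h. Nidogen-1 was highest at pH 7.4 at 12 h and lowest in acid at 12 h in both lines, and differed by -0.87 (SE 0.14, 1.83-fold lower, limma adjusted p = 0.00554). Hspg2 (perlecan) differed by -0.46 (SE 0.20, limma adjusted p = 0.128), and its matched difference was -0.85 for TDAG8 and -0.075 for control cells. The laminin chains Lama5, Lamb1 and Lamc1 differed by -0.13 (SE 0.215), -0.03 (SE 0.14) and 0.29 (SE 0.16), and none of these passed.

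Matricellular proteins, which sit in the matrix and signal to cells without bearing load, went both ways. Thbs2 encodes thrombospondin-2. Thbs2 read 205.8 before treatment, 214.7 at pH 6.4 against 215.6 at pH 7.4 after 4 h, and 141 at pH 6.4 against 221.2 at pH 7.4 after 12 h in the TDAG8 line. Control-line Thbs2 read 99.5 before treatment, 115.8 at pH 6.4 against 133 at pH 7.4 after 4 h, and 81.7 at pH 6.4 against 161.4 at pH 7.4 after 12 h. The acid array at 12 h was the lowest of its line, and the difference was -0.78 (SE 0.14, 1.72-fold lower, limma adjusted p = 0.00798). Tnc encodes tenascin-C, a glycoprotein of remodelled matrix. Tnc read 14.3 before treatment, 23.2 at pH 6.4 against 9.3 at pH 7.4 after 4 h, and 38.4 at pH 6.4 against 9.5 at pH 7.4 after 12 h in the TDAG8 line. Control-line Tnc read 18.1 before treatment, 11.7 at pH 6.4 against 10 at pH 7.4 after 4 h, and 18.2 at pH 6.4 against 5.3 at pH 7.4 after 12 h. Tnc was dim on every array but higher in acid in both lines at 12 h, by 1.73 (SE 0.38, 3.32-fold higher, limma adjusted p = 0.0165). Sparc (osteonectin, 1455.4 to 2615.4) differed by 0.08 (SE 0.10), and the dim Thbs1 (5.8 to 29.7) by 0.13 (SE 0.44). Serpinh1 encodes HSP47, the collagen chaperone of the endoplasmic reticulum. Serpinh1 read 2201.5 before treatment, 2450.5 at pH 6.4 against 2204 at pH 7.4 after 4 h, and 1822.6 at pH 6.4 against 2625.1 at pH 7.4 after 12 h in the TDAG8 line. Control-line Serpinh1 read 2317.5 before treatment, 2449.7 at pH 6.4 against 2265.3 at pH 7.4 after 4 h, and 2166.1 at pH 6.4 against 2466.5 at pH 7.4 after 12 h. Serpinh1 was lowest in acid at 12 h in both lines and differed by -0.36 (SE 0.10, 1.29-fold lower, limma adjusted p = 0.0334).

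RefSeq promoter windows (build GRCm38.p6) matched 22 of the 34 genes. The windows of 3 genes that were lower in acid and of Tnc, which was higher, are printed so that the letters of genes that moved in opposite directions can be set side by side. Only bases before the outermost annotated start of the gene are given, 149 for Sned1 (chr1:93235647-93235795, plus strand) and 250 each for Nid1 (chr13:13437352-13437601, plus strand), Thbs2 (chr17:14694263-14694512, minus strand) and Tnc (chr4:64047016-64047265, minus strand). Capitals mark the TATA box TATAAA, the CCAAT box CCAAT and the GC box GGGCGG, searched on both strands.
Sned1: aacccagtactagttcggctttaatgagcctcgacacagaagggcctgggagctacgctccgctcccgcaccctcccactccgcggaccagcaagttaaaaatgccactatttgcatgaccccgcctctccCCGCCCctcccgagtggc
Nid1: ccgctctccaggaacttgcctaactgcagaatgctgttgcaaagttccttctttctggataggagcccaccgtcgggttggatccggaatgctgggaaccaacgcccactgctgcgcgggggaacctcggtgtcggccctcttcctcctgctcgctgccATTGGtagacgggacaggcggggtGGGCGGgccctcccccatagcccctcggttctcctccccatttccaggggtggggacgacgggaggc
Thbs2: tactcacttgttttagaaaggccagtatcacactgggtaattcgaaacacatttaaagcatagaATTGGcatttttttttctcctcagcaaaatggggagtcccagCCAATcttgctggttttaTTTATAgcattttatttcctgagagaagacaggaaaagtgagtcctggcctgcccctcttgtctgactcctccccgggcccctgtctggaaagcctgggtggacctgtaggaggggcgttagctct
Tnc: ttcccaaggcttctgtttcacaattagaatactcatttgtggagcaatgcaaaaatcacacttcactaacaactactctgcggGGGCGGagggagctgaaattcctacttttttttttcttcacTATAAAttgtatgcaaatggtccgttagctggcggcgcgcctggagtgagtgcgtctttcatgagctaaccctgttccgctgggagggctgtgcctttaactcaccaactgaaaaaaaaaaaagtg
TATAAA stood in 5 of 26 windows of these matrix genes and in 12.4% of all 32841 windows of the same length. Of those 5, 2 are overlapping Tnc windows that hold the same TATAAA. The 26 windows belong to the 22 genes, Fbn1 among them, and some, such as that of Vcan, lie wholly inside the annotated gene. The GC box stood in 18 of 26 windows, against 32.7% of all windows, and CCAAT in 8 of 26, against 33.9%. The AP-1 site TGACTCA stood in 1 of 26, that of Col6a1, against 4.46%, and the cAMP response element TGACGTCA in 0 of 26, against 1.55%. TATAAA lies in the Thbs2 window and in the Tnc window, 1 gene lower and 1 higher in acid. A match describes letters only and is not a binding site, and no match says only that the letters are not in this window.

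The array read 19 of these genes with several probe sets over the filter, and probe sets of the same gene did not always give the same pH difference. With every probe set fitted on its own, a test added after seeing the data, 25 of 53 probe sets passed at 12 h, 24 lower and 1 higher; 31.1% of all 22854 probe sets passed, 15.5% lower and 15.6% higher. They covered 14 genes with at least 1 probe set lower. Col3a1 and Col5a1, which had not passed on their brightest probe set, were among the 14. The second Col3a1 probe set gave 518.7 at pH 6.4 against 1171.9 at pH 7.4 at 12 h in the TDAG8 line and 619.5 at pH 6.4 against 1414.6 at pH 7.4 in the control line. It differed by -1.23 (SE 0.12, 2.35-fold lower, limma adjusted p = 0.00155), while the brightest Col3a1 probe set differed by -0.26. The further Col5a1 probe sets differed by -1.03 (SE 0.18, limma adjusted p = 0.00909) and -0.89 (SE 0.12, limma adjusted p = 0.00377).

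The second Fn1 probe set gave 19 at pH 6.4 against 117.2 at pH 7.4 at 12 h in the TDAG8 line and 24.8 at pH 6.4 against 148.8 at pH 7.4 in the control line. That is a difference of -2.35 (SE 0.20, 5.09-fold lower, limma adjusted p = 0.0012), wider than the -1.07 of the brightest. The further Thbs2 probe sets differed by -2.02 (SE 0.28, limma adjusted p = 0.00413) and -2.73 (SE 0.24, limma adjusted p = 0.00138). When the pH difference of a further probe set was tested against that of the brightest, the further one was lower for Col3a1 (-0.97, limma adjusted p = 0.0107), Fn1 (-1.28, limma adjusted p = 0.00839), both Col5a1 probe sets (-1.09 and -0.95) and both Thbs2 probe sets (-1.24 and -1.95). The further difference was less negative for Nid1 (0.75, limma adjusted p = 0.0234) and for the dim further probe sets of Dcn (1.40) and Vcan (2.21). In that test 13.1% of 10693 pairs of probe sets passed, 5.66% lower and 7.45% higher. Fitted on its own, the further Nid1 probe set differed by -0.12 (SE 0.13, limma adjusted p = 0.538) and did not pass. Nor did the further Col18a1 probe set, at -0.44 (SE 0.16, limma adjusted p = 0.0845). Vcan was lower by all of its 3 brighter probe sets, at -2.42, -1.64 and -2.12, and by a dim one at -2.26. Which transcripts each probe set reads was not tested.

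**Figure D3:**
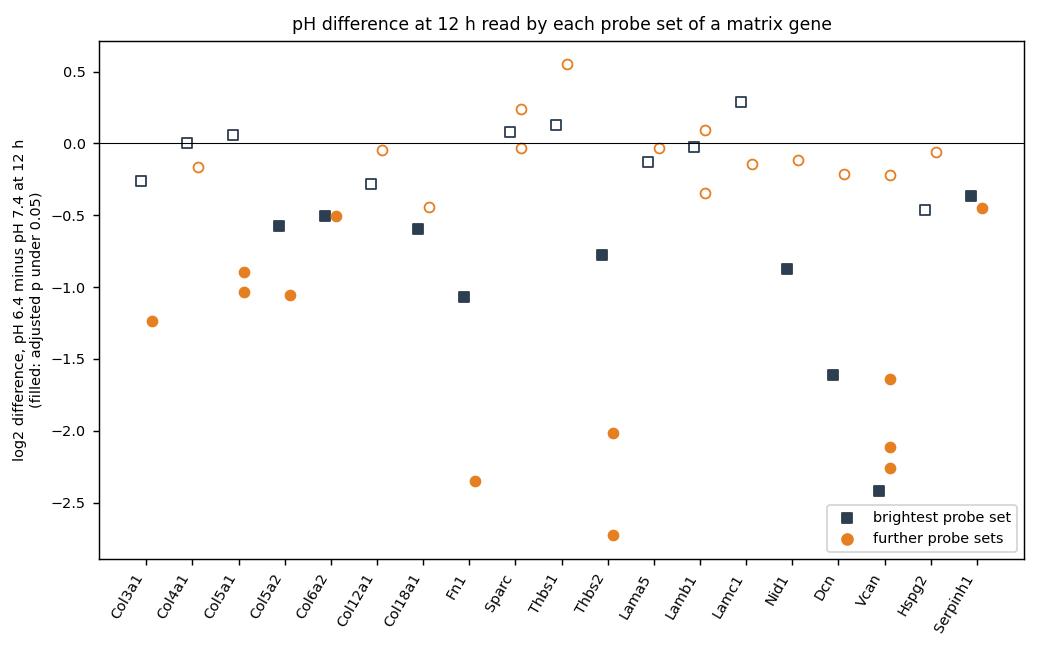
The log2 difference between pH 6.4 and pH 7.4 at 12 h (y axis) is drawn for each probe set of the 19 genes with several (x axis): squares are the brightest probe set of a gene, circles the further ones, filled where the adjusted p was under 0.05. For Col3a1, Col5a1, Fn1 and Thbs2 the filled circles lie below the square, and for Nid1, Dcn and 1 Vcan probe set an open circle lies near 0.

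At 4 h, 0 of the 27 genes passed, in a comparison where 17.8% of all genes tested did, 11.5% lower and 6.23% higher. At an unadjusted p under 0.05 there were 4, namely Sned1, Fn1, Col1a2 and Fbln2, against 4120 of all 12160 genes tested. A trended, robust variance in limma called Sned1, Fn1 and Sparc. Sned1 came nearest among the falling genes, at -0.63 (SE 0.17, 1.54-fold lower, limma adjusted p = 0.0532), and both lines gave close to that value. Col1a2 differed by 0.87 (SE 0.23, 1.82-fold higher, limma adjusted p = 0.0524) on dim signals. Without either the TDAG8 pair or the control pair at 12 h, both Sned1 and Col1a2 passed at 4 h. The median of the 27 genes was 0.01, equal to that of all genes tested. Over both times together, 0 of 27 passed, against 10.1% of all genes tested, 5.63% lower and 4.51% higher. There, 8 of the 27 had an unadjusted p under 0.05, as had 3890 of all 12160 genes tested. The trended, robust variance called 4, namely Fn1, Lum, Sned1 and Vcan. With pH by time added to that model 11 passed, and without the control pair at 4 h Tnc alone passed. The shares of all genes tested under these alternatives are not given here.

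The pH difference at 12 h was then tested against that at 4 h. For 7 of 27 genes it was more negative at 12 h and for 0 more positive, where 5.53% of all genes tested were lower, 6.62% higher and 12.2% either way. Sned1 moved furthest, with a difference between the times of -2.92 (SE 0.24, limma adjusted p = 0.0156). Vcan followed with -2.02 (SE 0.305, limma adjusted p = 0.0201), Dcn with -1.44 (SE 0.15, limma adjusted p = 0.0156) and Lum with -1.36 (SE 0.29, limma adjusted p = 0.0352). Nid1 (-0.89), Fn1 (-0.76) and Col6a2 (-0.53) also passed. Leaving out any 1 matched pair of arrays ended all 7 calls, and left 0 of all genes tested. Averaged over pH, 0 of 27 genes and 0% of all genes tested passed for 12 h against 4 h. Of the 27, 2 genes, Col5a1 and Sparc, had an unadjusted p under 0.05, against 1422 of all 12160 genes tested. A trended, robust variance in limma called 0 of the 27.

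The pH 7.4 arrays at 12 h were themselves above those before treatment for several of these genes, so both 12 h groups were set against the arrays before treatment, a test added after seeing the data. These comparisons share the arrays before treatment. In acid for 12 h, Sned1 (-3.00), Vcan (-1.40), Lum (-0.96) and Col6a1 (-0.36) were lower than before treatment, and Sparc (0.50) and Col5a1 (0.39) were higher. That is 6 of 27 genes, where 29.9% of all genes tested passed, 15.6% lower and 14.3% higher. The other 9 genes that passed between the pH values at 12 h did not pass here. For Fn1 the difference in acid from the level before treatment was -0.07 (SE 0.10), for Dcn -0.18 (SE 0.10), for Col6a2 -0.09 (SE 0.09), for Col18a1 -0.07 (SE 0.13) and for Serpinh1 -0.21 (SE 0.10). It was -0.39 (SE 0.14, limma adjusted p = 0.0829) for Thbs2 and -0.29 (SE 0.14, limma adjusted p = 0.165) for Nid1. Col5a2, at 0.23 (SE 0.10, limma adjusted p = 0.127), and the dim Tnc, at 0.71 (SE 0.38, limma adjusted p = 0.212), were on the other side.

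At pH 7.4 for 12 h, Dcn was 2.7-fold higher than before treatment (1.43, SE 0.10, limma adjusted p = 0.0301), 1 of 27 genes where 0.0576% of all genes tested passed. Other genes were less far above the level before treatment and did not pass: Vcan by 1.03 (SE 0.22, limma adjusted p = 0.132), Fn1 by 0.999 (SE 0.10, limma adjusted p = 0.0627), Col5a2 by 0.80 (SE 0.10, limma adjusted p = 0.0851) and Lum by 0.80 (SE 0.20, limma adjusted p = 0.159). An unadjusted p under 0.05 was reached by 13 of the 27 and by 2044 of all 12160 genes tested. Among the 13 was the dim Tnc, which was lower than before treatment, at -1.03 (SE 0.38, limma adjusted p = 0.256). The 12 h pH difference of Dcn and Fn1 thus lay on the pH 7.4 side of the level before treatment, that of Sned1 mostly on the acid side, and that of Vcan and Lum on both.

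**Figure D4:**
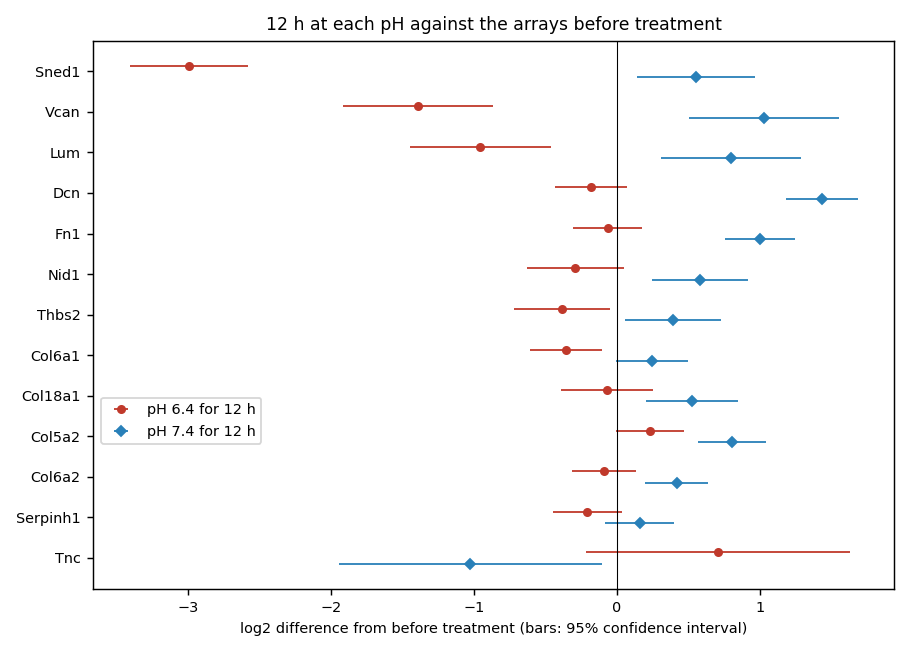
The log2 difference from the arrays before treatment (x axis, bars are 95% confidence intervals) is drawn for pH 6.4 for 12 h (circles) and pH 7.4 for 12 h (diamonds) for the 13 genes that passed at 12 h. Circles of Fn1 (-0.07) and Dcn (-0.18) lie near 0 with diamonds to the right, and Sned1 has its circle at -3.00.

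Between the lines, 3 of 27 genes passed over the 5 matched conditions, where 1.23% of all genes tested did, 0.691% higher and 0.535% lower. Thbs2 was higher in the TDAG8 line by 0.73 (SE 0.09, 1.65-fold, limma adjusted p = 0.0355), and Dcn by 0.45 (SE 0.065, 1.37-fold, limma adjusted p = 0.0459). Both genes were higher in the TDAG8 line in 5 of 5 pairs. Col6a2 was lower in the TDAG8 line, with a difference of -0.39 (SE 0.06, 1.31-fold, limma adjusted p = 0.0459), again in 5 of 5 pairs. When any 1 pair was left out, the low-signal filter was lifted or the block for condition was dropped, 0 of 27 genes passed. With a pair left out, 4 to 28 of all genes tested passed, against 149 with all pairs.

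Other genes had the same sign in all pairs without passing. Lum was higher in the TDAG8 line by 0.80 (SE 0.13, limma adjusted p = 0.0533), Nid1 by 0.465 (SE 0.09, limma adjusted p = 0.0696) and Sparc by 0.39 (SE 0.06, limma adjusted p = 0.0552). Lower in the TDAG8 line were Col5a2, at -0.34 (SE 0.06, limma adjusted p = 0.0651), Fn1, at -0.33 (SE 0.06, limma adjusted p = 0.0722), and Col6a1, at -0.29 (SE 0.065, limma adjusted p = 0.0888). These 6 and the 3 that passed are the 9 genes called with a trended, robust variance. The shares of all genes tested that were called that way, or had the same sign in all pairs, are not given here. Col12a1 was higher in 5 of 5 pairs too, by 0.34 (SE 0.12, limma adjusted p = 0.192). With 1 line of each kind, the receptor and any other difference between the lines cannot be told apart.

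**Figure D5:**
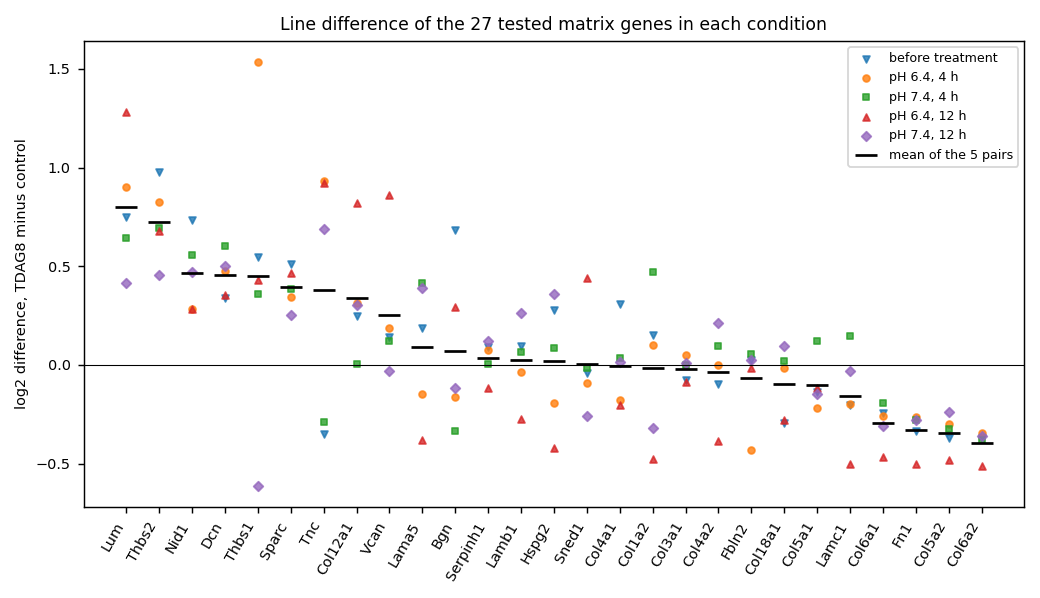
The log2 difference between the TDAG8 line and the control line (y axis) is drawn for the 27 tested genes (x axis) in each of the 5 matched conditions (symbols), with the mean of the 5 pairs as a bar. All symbols of Lum, Thbs2, Nid1, Dcn and Sparc lie above 0, and all of Col6a1, Fn1, Col5a2 and Col6a2 lie below it.

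For the difference in pH response between the lines, 0 of 27 genes and 0% of all genes tested passed. At an unadjusted p under 0.05 there were 0 of the 27 and 337 of all genes tested, and limma with a trended, robust variance called 0 of the 27. With 2 residual degrees of freedom the intervals were wide. For Sned1 the difference in pH response between the TDAG8 line and the control line was 0.31 (SE 1.37), for Vcan 0.48 (SE 0.97) and for Lum 0.56 (SE 0.69). These intervals do not show that the lines responded alike.

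Genes around the same matrix were read from lists chosen by function, and their counts at 12 h stand beside the 17.6% of all genes tested that were lower and the 17% that were higher. Of the other collagens, 3 of 15 tested were lower and 0 higher, among them Col6a3 (-0.76, SE 0.115, limma adjusted p = 0.00472), the third chain of type VI collagen. Of 21 other matrix proteins, 6 were lower and 2 higher. Aspn, a relative of decorin, differed by -1.95 (SE 0.20, limma adjusted p = 0.00158) and the elastic fibre protein Emilin1 by -1.51 (SE 0.17, limma adjusted p = 0.00201). Of 24 collagen processing genes, 5 were lower and 5 higher. Plod1, a lysyl hydroxylase that modifies collagen, differed by -1.41 (SE 0.09, limma adjusted p = 0.000764), and Pcolce2, which enhances procollagen cleavage, by 1.20 (SE 0.12, limma adjusted p = 0.00139).

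Of 20 receptors for matrix, 5 were lower and 2 higher at 12 h, and these 7 are a share close to the 34.6% of all genes tested that passed in either direction. The collagen receptor genes Ddr1 and Ddr2 differed by -1.58 (SE 0.31, limma adjusted p = 0.0117) and -1.44 (SE 0.09, limma adjusted p = 0.000764). The integrin chain gene Itga4 differed by -1.47 (SE 0.25, limma adjusted p = 0.00737). Of 26 regulators of matrix genes, 7 were lower and 8 higher, with Prrx1, a mesenchymal homeobox factor, at -1.29 (SE 0.15, limma adjusted p = 0.00201) and Skil, which represses SMAD signalling, at 1.32 (SE 0.13, limma adjusted p = 0.00133). Of 7 fibroblast markers tested, 3 were lower and 0 higher, namely the PDGF receptor genes Pdgfrb (-2.13, SE 0.30) and Pdgfra (-1.52, SE 0.16), and Lrrc15 (-1.02). All 7 lay below 0 at 12 h, with a median of -1.02, as did 5928 of all 12160 genes tested, with a median of 0.02. The bright Vim (-0.055, limma adjusted p = 0.674) and S100a4 (-0.11, limma adjusted p = 0.389) lay near 0 and did not pass. Des (-1.08) and Cspg4 (-0.39), which were dim, did not pass either. The summed signal of the 10 fibroblast markers was 12200 to 14800 in the TDAG8 line and 14200 to 17600 in the control line. Vim and S100a4 made up most of that sum, so it says little of the other markers. The part of cell identity in the matrix result was not tested.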

How the data were processed

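Arrays were grouped by line, pH and time per the labels. The deposited table holds 1 linear signal for every probe set, which the authors had scaled to a common trimmed mean; their summary software is not named in the labels. Of 45101 probe sets, 34945 had 1 gene symbol in the platform annotation, and the rest were left out. Medians differed between arrays by up to 0.24 in log2, so the arrays were quantile normalised, and log2(signal + 2.36) was used (2.36 is the 20th percentile). Each gene kept its brightest probe set, and genes with a mean log2 value of at least 3.17 (signal 6.6, the 40th percentile) were tested.

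Tests were run with limma 3.58.1 (lmFit, eBayes; R 4.3.3) with Benjamini-Hochberg adjustment over 12160 genes. The line comparison had condition as a block. The pH differences at each time and their difference came from 1 fit of 10 arrays with line as a block, with 4 residual degrees of freedom. The pooled pH and time comparisons used the 8 treated arrays with 3, and the interaction had 2. These fits were tested on simulated data. Precision is limited by how many arrays there are.

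The genes and lists were chosen with earlier results of these data known. Values on every array are given for genes that passed in a comparison and for neighbouring collagen pairs, the others by range, and from each other list up to 4 passing genes with a large difference. Alternatives were other normalisations, pseudocounts, filters, probe set rules and variance models, each matched pair left out, and models without a block. The fits against the arrays before treatment and of every probe set were added after seeing the data. Promoter windows are RefSeq's.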

Additional observations from a re-analysis of the deposited data

Results flagged for a closer look

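By the test of a change in the pH difference between the times, 7 of the 27 matrix genes passed. Of all genes tested 12.2% passed, 5.53% lower and 6.62% higher. Leaving out any 1 matched pair left 0 of the 7 calls and 0 of all genes tested, and lifting the low-signal filter also ended the 7 calls. On the log2 scale the difference at 12 h minus that at 4 h was -2.92 for Sned1, -2.02 for Vcan, -1.44 for Dcn, -1.36 for Lum, -0.89 for Nid1, -0.76 for Fn1 and -0.53 for Col6a2.

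At both times, 3 basement membrane genes gave a negative pH difference in the TDAG8 line and a positive one in the control line. This holds for quantile-normalised values, where the TDAG8-line differences at 4 h were -0.02 for Col4a1, -0.06 for Col4a2 and -0.035 for Lamb1. The 3 are named because of this pattern, and its share among all genes tested is not given here. Col18a1, another basement membrane gene, was negative in both lines at both times. In the deposited signals of the TDAG8 line at 4 h, all 3 genes were higher at pH 6.4, with 2336.6 against 2095 for Col4a1, 1056.1 against 1011.5 for Col4a2 and 700.6 against 686.6 for Lamb1 at pH 7.4. The difference in pH response between the TDAG8 line and the control line was -0.22 for Col4a1 (SE 0.265), -0.34 for Col4a2 (SE 0.285) and -0.32 for Lamb1 (SE 0.28). In the interaction fit each of the 3 had a limma adjusted p = 1. No group had enough arrays to look for single arrays that stand apart.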

How the results depend on the processing

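Counts are of genes that passed among the 27 tested (fewer with a stricter filter), and may include genes that did not pass as fitted. At 12 h, where 13 passed, centring arrays on the median gave 8, all among the 13. Setting acid against the arrays before treatment gave 6, of which 4 were among the 13, with Col5a2 then reversed at 0.231. Leaving out 1 matched pair gave 5 to 11, and a lone 12 h array is then assumed to vary like the other groups. For the change between the times, 7 became 4 with centring, 0 without the filter, 11 with a trended, robust variance (the 7 among them) and 0 with any pair left out. Between the lines, 3 became 1 with centring, 7 with the pseudocount at the 40th percentile, 9 with the filter at the 60th percentile or a trended, robust variance, and 0 without the filter, without the block or with any pair left out. For pH over both times, 0 became 1 with the stricter filter, 4 with the trended, robust variance, 3 without the block, 11 with pH by time in the model and 0 to 1 with a pair left out. For pH at 4 h, 0 became 1 with centring, 2 with the deposited values, 2 with the higher pseudocount, 1 with the stricter filter, 1 with the mean of all probe sets, 3 with the trended, robust variance and 0 to 2 with a pair left out. For pH over both times, 0 to 290 of all genes tested passed with a pair left out, against 1234 as fitted. Most shares of all genes tested under the alternatives are not given here. A rise or fall in these counts is thus not read as a result about the matrix genes. The causes were not tested. Centring moved the median difference of all genes tested to 0.12 at 12 h and 0.22 between the times. It moved the share of lower genes among all genes called to 82.8% at 4 h, against 64.9% as fitted, and to 18% between the times, against 45.5%. Comparisons of 12 h with 4 h and of pH response between lines called 0 under every alternative run. No paired analysis by replicate number was possible because each line and condition had 1 array. Tnc, Bgn, Thbs1 and Col1a2 were dim, and low signal over background limits what can be seen for them.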

Other observations

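At 4 h, where 0 of the 27 matrix genes passed, 12 of 26 tested regulators of matrix genes did, 9 lower and 3 higher at pH 6.4 than at pH 7.4, with 17.8% of all genes tested passing. Mrtfb, a coactivator of SRF, differed by -1.865 (limma adjusted p = 0.00215) and Snai2, a mesenchymal repressor, by -1.74 (limma adjusted p = 0.00404). Skil and Smad7, which dampen SMAD signalling, differed by 1.31 (limma adjusted p = 0.0033) and 1.23 (limma adjusted p = 0.00469). The mesenchymal marker Pdgfra differed by -1.88 at 4 h (limma adjusted p = 0.00245). It was the 1 of 7 fibroblast markers tested that passed at 4 h. The median of the 7 was -0.01, with 5 below 0 and 2 above. Between the lines, 1.23% of all genes tested passed, 0.535% lower. Snai2 (-0.77, limma adjusted p = 0.0496) was 1 of 26 regulators that passed and Lrrc15 (-0.98, limma adjusted p = 0.0264) was 1 of 7 fibroblast markers. Both were lower in the TDAG8 line. With a pair left out, 4 to 28 of all genes tested passed between the lines, and whether Snai2 and Lrrc15 did is not given here. These are values side by side, and no link between the regulators and the matrix genes was tested.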
